A study of Rattus norvegicus with 6 samples.

Results

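The Slco genes encode the organic anion transporting polypeptides, membrane proteins that carry amphipathic organic anions such as bile acids, steroid conjugates, thyroid hormones, prostaglandins and many drugs into or out of cells. Kidney RNA was examined for 8 members of the family, Slco1a1, Slco1a4, Slco1a6, Slco2a1, Slco2b1, Slco3a1, Slco4a1 and Slco4c1, chosen by gene symbol from the 15 symbols beginning with Slco among 17051 listed genes. Of the 8 members, 7 were found by their symbol, and Slco1a4 was found by the accession of its transcript, which the gene definitions list under its older symbol Slco1a2. Samples came from male Sprague Dawley rats of the AL group (rats 61, 71 and 88), fed standard laboratory chow ad libitum, and of the HD group (rats 64, 67 and 69), fed chow powder mixed with an amino acid preparation that mimics hemoglobin, called the hyperammonemic diet in the labels. Diets were given for a week, no age is stated in the sources used here, and each rat was a separate RNA sequencing library of kidney tissue. The comparison asks whether the transporter transcripts differed between the diets.

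In the kidney, proteins of this family sit mainly in the tubular epithelium. Together with the organic anion transporters of the Slc22 family and with ATP-driven efflux pumps, they move endogenous and foreign organic anions between blood, cell and tubular fluid. Slco1a1 lies in the apical membrane of the last segment (S3) of the proximal tubule, and Slco4c1 lies in the basolateral membrane of the proximal tubule, where it takes up digoxin and thyroid hormone from blood. Slco2a1 is the prostaglandin transporter, which brings prostaglandins into cells for their oxidation.

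The Slco1a members lie side by side on chromosome 4 of rn5, all on the minus strand. Slco1a4 runs from 240194947 to 240251561 with 15 exons, Slco1a1 from 240374352 to 240447522 with 15 exons and Slco1a6 from 240560523 to 240596725 with 14 exons. Between Slco1a1 and Slco1a6 lies Slc21a4, from 240471781 to 240515295, which RefSeq names Slco1a3 and which encodes the kidney transporter OAT-K1. The other members are single genes elsewhere. Slco3a1 lies on chromosome 1 from 136802247 to 137070858, Slco2b1 on chromosome 1 from 170827268 to 170863662 and Slco4a1 on chromosome 3 from 181259387 to 181278378. Slco2a1 lies on chromosome 8 from 110886314 to 110968065, and Slco4c1 on chromosome 9 from 103911906 to 103960233. A single transcript was listed for each of the 8 members.

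The sequences upstream of 6 members are shown because these members carry the results below, 3 for their difference between diets and 3 as neighboring genes with unlike levels. Each is the 250 bases before the gene's start in RefSeq's build GRCr8, written 5′ to 3′ on the gene's strand. Capitals mark GCGTG, the core of the dioxin response element bound by the aryl hydrocarbon receptor, and GGGCGG, the GC box, on either strand. On the opposite strand they read CACGC and CCGCCC, and no matches overlapped. The windows are GRCr8 chr9:104676463-104676712 for Slco4c1, chr3:187936632-187936881 for Slco4a1 and chr1:163408066-163408315 for Slco2b1. For the Slco1a members they are chr4:176681993-176682242 (Slco1a1), chr4:176495847-176496096 (Slco1a4) and chr4:176839033-176839282 (Slco1a6).
Slco4c1: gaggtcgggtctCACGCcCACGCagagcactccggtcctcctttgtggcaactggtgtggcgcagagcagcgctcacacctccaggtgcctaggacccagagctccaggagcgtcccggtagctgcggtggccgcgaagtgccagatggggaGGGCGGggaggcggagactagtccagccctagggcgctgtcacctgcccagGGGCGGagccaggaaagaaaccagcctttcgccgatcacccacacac
Slco4a1: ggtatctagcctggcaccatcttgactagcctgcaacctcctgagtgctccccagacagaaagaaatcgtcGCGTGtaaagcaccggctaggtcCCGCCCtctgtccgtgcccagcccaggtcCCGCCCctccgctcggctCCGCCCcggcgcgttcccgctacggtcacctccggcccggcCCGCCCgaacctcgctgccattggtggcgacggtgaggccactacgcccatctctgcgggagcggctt
Slco2b1: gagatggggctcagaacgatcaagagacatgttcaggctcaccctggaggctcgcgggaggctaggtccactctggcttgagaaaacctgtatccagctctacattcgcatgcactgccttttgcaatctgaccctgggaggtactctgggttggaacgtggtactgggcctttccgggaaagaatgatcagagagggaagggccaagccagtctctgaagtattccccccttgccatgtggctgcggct
Slco1a1: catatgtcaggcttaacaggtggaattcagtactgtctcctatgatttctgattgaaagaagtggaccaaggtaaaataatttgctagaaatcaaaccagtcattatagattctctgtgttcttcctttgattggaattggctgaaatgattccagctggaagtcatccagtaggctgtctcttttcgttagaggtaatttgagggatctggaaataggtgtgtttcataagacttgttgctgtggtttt
Slco1a4: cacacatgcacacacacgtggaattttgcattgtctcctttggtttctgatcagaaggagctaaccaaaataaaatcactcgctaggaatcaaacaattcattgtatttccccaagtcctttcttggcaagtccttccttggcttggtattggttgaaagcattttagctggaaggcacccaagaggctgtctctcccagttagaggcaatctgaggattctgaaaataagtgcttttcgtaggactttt
Slco1a6: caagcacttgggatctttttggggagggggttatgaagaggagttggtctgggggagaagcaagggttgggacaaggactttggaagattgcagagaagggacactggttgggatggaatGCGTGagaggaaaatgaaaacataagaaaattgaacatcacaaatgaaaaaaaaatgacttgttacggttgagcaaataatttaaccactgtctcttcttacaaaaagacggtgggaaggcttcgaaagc

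All 8 members matched an upstream sequence. GCGTG occurred in 4 of the 8 windows, with 2 matches in Slco4c1 and 1 each in Slco4a1, Slco1a6 and Slco2a1, and in 25.9% of 33469 windows of all genes. GGGCGG also occurred in 4 of the 8 members, with 4 matches in Slco4a1, 2 each in Slco4c1 and Slco3a1 and 1 in Slco2a1, and in 30.5% of all windows. The windows of the 3 Slco1a members and of Slco2b1 held no GC box, and those of Slco1a1, Slco1a4 and Slco2b1 held neither motif. The share of G and C was 38.4% to 43.2% upstream of the Slco1a members and 56.0% to 73.2% upstream of the others. Slco1a1 and Slco1a4 were the most alike pair of the 8 members, Slco1a3 and Slco1a5, with 66.4% identity over a global alignment of 265 columns. The other 44 pairs had 38.3% to 49.3%, among them Slco1a6 with Slco1a1 (42.6%) and with Slco1a4 (42.6%).

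Total estimated counts ranged from 12499945 in rat 64 to 30466461 in rat 69. Reads of the 8 members made up 0.181% to 0.294% of the counts of each rat. Levels within a gene are given as CPM, its counts scaled to a common library size with TMM factors, and levels between genes as TPM, which is also scaled to transcript length. Levels differed widely between members (plot of TPM by gene). Slco1a6 was the most abundant member at 868 ± 309 TPM (SD over the 6 rats), followed by Slco1a1 at 430.4 ± 77.7 TPM. Their neighbor Slc21a4, at 494 ± 171 TPM, lay between them and exceeded Slco1a1 in 3 of 6 rats, so these neighbors in the order did not differ beyond their spread. Slco1a1, Slco1a6 and Slc21a4 together made up 96.1% to 97.7% of the summed TPM of all genes of the family in every rat.

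**Figure D1:**
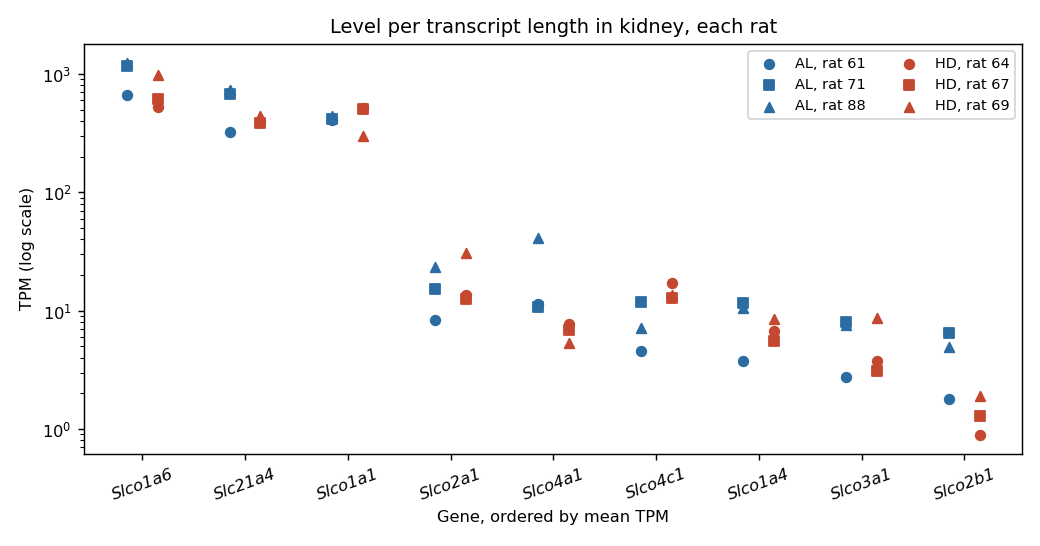
Level of the 8 Slco members and of Slc21a4 (Slco1a3 in RefSeq) in TPM on a log scale for each of the 6 rats, AL group in blue and HD group in red. Slco1a6, Slc21a4 and Slco1a1 lie between 299.8 and 1245 TPM, and every other member has at most 40.8 TPM in a rat.

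The other 6 members were at 1 or 2 orders of magnitude below. Slco2a1 was at 17.3 ± 8.20 TPM, Slco4a1 at 13.8 ± 13.4, Slco4c1 at 11.2 ± 4.53, Slco1a4 at 7.79 ± 3.01, Slco3a1 at 5.64 ± 2.70 and Slco2b1 at 2.89 ± 2.27 TPM (SD over the 6 rats). Slco1a1 was above Slco2a1 without overlap. No other pair of neighbors in this order was free of overlap over the 6 rats, although Slco1a6 exceeded Slc21a4, and Slco3a1 exceeded Slco2b1, within each of the 6 rats. Slco4a1 had a higher mean than Slco4c1 but exceeded it in only 2 of 6 rats.

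The remaining 7 symbols of the family were barely detected. Slco1b3 (Slco1b2 in RefSeq), a transporter of hepatocytes, had at most 1.25 TPM in a rat, and Slco1a5 had at most 0.36 TPM. Slco6b1 had 2 counts in rat 61 and 0 in the other rats. Slco1c1, the thyroid hormone transporter of the blood-brain barrier, had 0 counts in all 6 rats, as had Slco5a1, Slco6c1 and Slco6d1. Genes needed 30 counts in 1 rat or more to be tested. All 8 members passed this minimum, and of the other 7 symbols Slco1b3 alone did.

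In the quasi-likelihood test of edgeR, 0 of the 8 members passed 0.05 after Benjamini-Hochberg adjustment, against 0% of all 11553 tested genes. At an unadjusted *P* value below 0.05 there were 3 members, against 10.6% of all tested genes. Slco4c1 was higher in the HD group (4.66% of all genes) and Slco2b1 and Slco4a1 were lower (5.94% of all genes). The groups of these same 3 members did not overlap in normalized CPM, which held for 14.3% of all tested genes, with the HD group above in 7.25% and below in 7.01%. Irrespective of *P*, 3 of the 8 members and 51.3% of all genes had a log2 fold change above 0. DESeq2, the tool of the study's methods, gave 3 members at an unadjusted *P* value below 0.05 (11.5% of all genes) and 1 member, Slco2b1, past the adjusted threshold (1.58% of all genes). The median log2 fold change of the members was -0.18, and that of all tested genes was 0.0067. For single members an exact permutation test (two-sided) of 3 rats against 3 reaches 0.1 at the lowest. These *P* values measure the spread between rats. In bulk RNA, fewer cells of a type and less RNA per cell cannot be told apart.

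**Figure D2:**
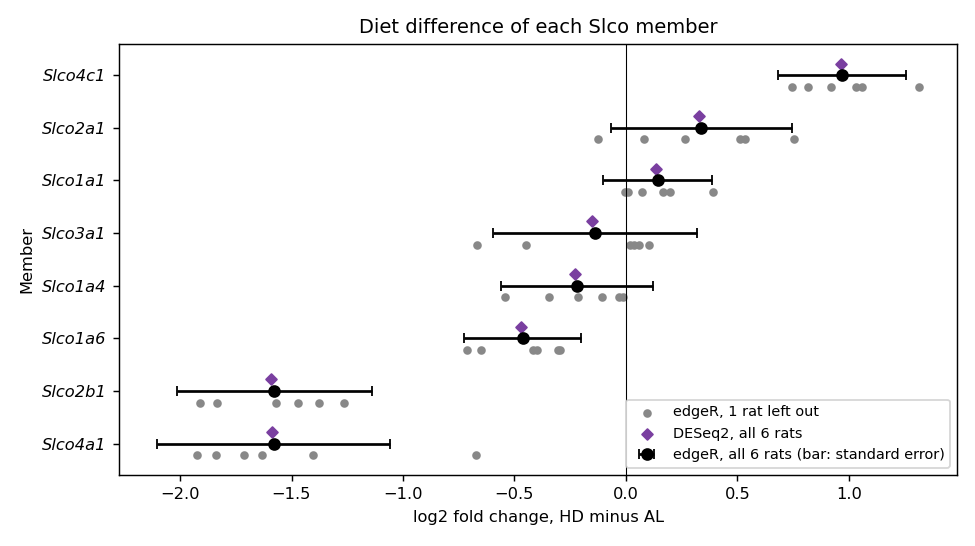
Log2 fold change of each member, HD minus AL, from edgeR with its standard error (black), from the 6 edgeR fits that each left out 1 rat (gray) and from DESeq2 (purple). Slco2b1 and Slco4a1 lie below 0 and Slco4c1 lies above 0 in every fit, and the gray point of Slco4a1 at -0.67 is the fit without rat 88.

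Slco4c1, the basolateral transporter of the proximal tubule, had a higher level in every HD rat than in any AL rat. The AL rats 61, 71 and 88 had 6.91, 14.97 and 9.66 CPM, and the HD rats 64, 67 and 69 had 24.96, 18.9 and 18.3 CPM. Among the rats, rat 64 was highest and rat 61 lowest. The means were 10.5 ± 4.09 and 20.7 ± 3.68 CPM (SD, *n* = 3 each). This 1.96-fold difference, a log2 fold change of 0.97 with a standard error of 0.29, did not pass the adjusted threshold (edgeR *P* = 0.0111, adjusted *P* = 0.402, exact permutation *P* = 0.1). In DESeq2 the adjusted *P* value was 0.0925. The groups did not overlap in TPM either.

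Some cell type markers were also higher in the HD group. For the counts of markers here and below, 4.66% of all tested genes were higher and 5.94% lower at an unadjusted *P* value below 0.05 in edgeR. For the first proximal tubule segments (S1 and S2), 0 markers passed the adjusted threshold in edgeR and 2 did in DESeq2. Of 10 listed markers 9 were tested, of which 7 were higher and 2 lower in the HD group, with 5 higher at an unadjusted *P* value below 0.05 (2 without rat 64 or without rat 71, 3 without rat 88). Their summed level ranged from 4718 to 6152 CPM in the AL group and from 6493 to 8288 CPM in the HD group. Within the AL group, rat 61 had the highest sum and the lowest level of Slco4c1. The sum was carried by Slc34a1 and Lrp2, while Slc5a12 and Slc5a2, the latter the glucose transporter that defines these segments, were at no more than 0.68 and 2.15 CPM in any rat. Per 1000 CPM of these markers, a measure added after the data were examined, Slco4c1 was at 1.12 to 2.86 CPM in the AL group and 2.67 to 3.01 CPM in the HD group, and the groups overlapped (exact permutation test, *P* = 0.3). Podocyte markers, all 8 with log2 fold changes above 0, summed to 68.9 to 161 CPM in the AL group and 222 to 493 CPM in the HD group. Distal convoluted tubule markers summed to 209.7 to 225 CPM in the AL group and 285 to 812 CPM in the HD group, with log2 fold changes of 2.93 in Slc12a3, 2.05 in Calb1 and -0.16 in Wnk4, and Pvalb near 0 in all rats. The part of these cells in the Slco4c1 difference was not tested.

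Slco2b1, which carries steroid sulfates and many oral drugs, was the least abundant member and had the lower mean in the HD group. It was at 4.77 CPM in rat 61, 14.3 in rat 71 and 11.7 in rat 88, against 2.29 in rat 64, 3.40 in rat 67 and 4.51 in rat 69. Rats 71 and 88 were far above the rest, and rat 61 lay only just above rat 69. In TPM these 2 rats changed places, with 1.80 in rat 61 and 1.90 in rat 69, so the separation of the groups depended on the scaling. The AL mean was 10.3 ± 4.93 CPM and the HD mean 3.40 ± 1.11 CPM (SD, *n* = 3 each). Its fitted log2 fold change of -1.58 with a standard error of 0.44, a level 2.98 times higher in the AL group, missed the edgeR threshold (*P* = 0.00795, adjusted *P* = 0.398, exact permutation *P* = 0.1). DESeq2 placed it past the threshold with an adjusted *P* value of 0.0392. In each of the 6 fits that left out 1 rat, the log2 fold change stayed between -1.91 and -1.27.

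Several marker lists leaned the same way as Slco2b1, tubular ones among them. Thick ascending limb markers were lower in the HD group in 7 of 7 genes (median log2 fold change -0.17), and principal cell markers in 5 of 7 (-0.41). Intercalated cell markers did not lean this way as a list, with 4 of 6 genes higher and a median log2 fold change of 0.20. They summed to 918 to 1047 CPM in the AL group and 772 to 879 CPM in the HD group. This sum was carried by Slc4a1, at 730, 586 and 615 CPM in rats 61, 71 and 88 and at 408, 527 and 375 CPM in rats 64, 67 and 69. Slc26a4 had a log2 fold change of 1.20 with a standard error of 0.21. All 9 tested leukocyte markers of 10 listed were lower in the HD group, 6 of them at an unadjusted *P* value below 0.05 (4 without rat 64, 3 without rat 67 and 2 without rat 71), and none past the adjusted threshold. Their summed level was 336 to 757 CPM in the AL group and 184 to 380 CPM in the HD group. The sum was carried by Cd74 and Lyz2, and in the HD rats mostly by Cd74, at 187, 116 and 263 CPM in rats 64, 67 and 69. Their log2 fold changes were -0.27 with a standard error of 0.30 (Cd74) and -2.30 with a standard error of 0.52 (Lyz2). Ratios to this sum therefore rest mainly on these 2 genes, and not on the list as a set. Ptprc, the pan-leukocyte antigen CD45, was at 7.15 to 17.3 CPM in the AL group and 2.80 to 4.96 CPM in the HD group. Endothelial markers were lower in 9 of 10 genes and summed to 250.5 to 643 CPM in the AL group and 163 to 498 CPM in the HD group. Stromal and smooth muscle markers were lower in 6 of 8 genes, with sums of 181 to 481 CPM and 108 to 449 CPM. Their smooth muscle genes Myh11 and Acta2 had log2 fold changes of 1.31 and 0.86, with standard errors of 0.88 and 0.79. In rat 69 Myh11, Tagln and Acta2 were the highest of this list, at 102, 81.2 and 69.0 CPM. The ratio to this sum in rat 69 therefore rests mainly on these genes, and a ratio without them was not tested. No marker of the leukocyte, endothelial and stromal lists was at 0 in all rats, and Cd3e, a T cell marker, had 0 counts in rats 64 and 67. Per 1000 CPM of leukocyte markers, Slco2b1 was at 14.2 to 23.3 CPM in the AL group and 9.62 to 18.5 in the HD group, which overlapped (exact permutation test, *P* = 0.2). Per 1000 CPM of endothelial markers it was at 18.2 to 22.3 CPM in the AL group and 9.05 to 14.1 in the HD group, and per 1000 CPM of stromal markers at 26.3 to 29.7 and 10.05 to 21.1 CPM, without overlap (exact permutation test, *P* = 0.1 for both). These ratios were added after the data were examined. How many other genes separate on these scales was not tested, nor was the part of the cell types in the Slco2b1 difference.

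The genes most like Slco2b1 over the 6 rats, among 9381 genes with a mean of at least 5 CPM, were Maged2, Fbln5 and Macf1, with Pearson's *r* of log2 CPM of 0.994, 0.994 and 0.993. Fbln5 encodes a protein of elastic fibers and was at 36.4, 109.5 and 90.3 CPM in rats 61, 71 and 88 and at 13.9, 22.9 and 35.6 CPM in rats 64, 67 and 69, the same order of rats as Slco2b1. For Slco4c1, Exoc4 (0.988) and Hnf4g (0.987) were among the 3 most alike genes. Hnf4g, a nuclear receptor, was at 7.07, 14.6 and 10.7 CPM in rats 61, 71 and 88 and at 23.5, 21.2 and 17.1 CPM in rats 64, 67 and 69. With 6 rats such values are common, since 345 genes reached an *r* above 0.9 with Slco2b1 and 197 with Slco4c1.

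Slco4a1, a widely expressed thyroid hormone transporter, had a lower level in every HD rat than in any AL rat. The AL rats were at 23.6 (rat 61), 18.3 (rat 71) and 75.1 CPM (rat 88), and the HD rats at 15.5 (rat 64), 13.9 (rat 67) and 9.88 CPM (rat 69). Rat 88 stood far above every other rat, and the lowest AL rat exceeded the highest HD rat by a small margin. The means were 39.0 ± 31.4 and 13.1 ± 2.92 CPM (SD, *n* = 3 each). In edgeR the log2 fold change was -1.58 with a standard error of 0.52 (*P* = 0.0179, adjusted *P* = 0.406, exact permutation *P* = 0.1). In DESeq2 the adjusted *P* value was 0.0555. Without rat 88 the log2 fold change was -0.67, so that most of the size of this difference rested on 1 rat. Without rat 69 the unadjusted *P* value rose to 0.0629. Leukocyte markers, with the values given above and a sum carried by Cd74 and Lyz2, were lower in the HD group too. In a ratio added after the data were examined, Slco4a1 per 1000 CPM of them was at 70.3, 24.2 and 149 CPM in rats 61, 71 and 88 and at 65.2, 75.9 and 26.01 CPM in rats 64, 67 and 69, which overlapped (exact permutation test, *P* = 0.8). The part of these cells in the Slco4a1 difference was not tested. The groups were also separate in TPM, at 10.7 to 40.8 in the AL group and 5.36 to 7.72 in the HD group.

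**Figure D3:**
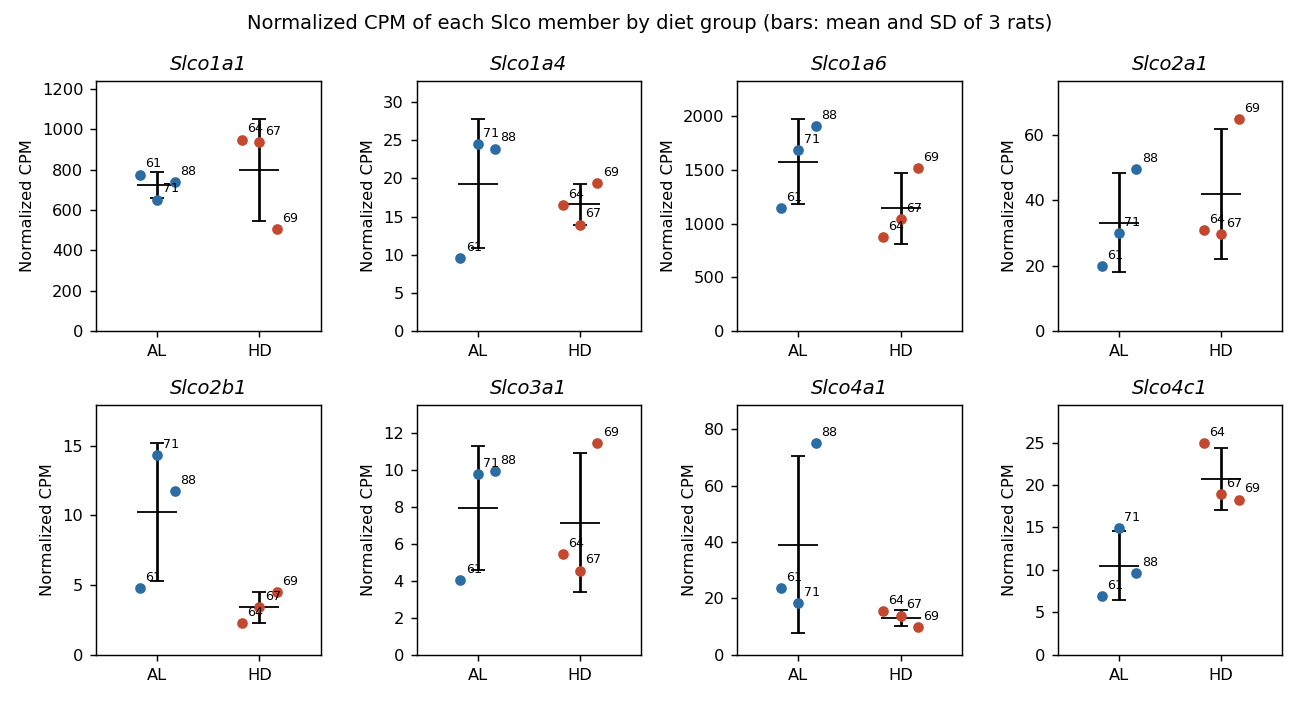
Normalized CPM of each of the 8 members for each rat (points labeled by rat number), with the mean and SD of the 3 rats of each group as bars. The groups are apart in Slco2b1, Slco4a1 and Slco4c1 and overlap in the other 5 members, and rat 88 at 75.1 CPM stands apart in Slco4a1.

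Opposite directions of Slco4c1 and the 2 lower members gave ratios that do not depend on the scaling of the libraries. The TPM ratio of Slco4c1 to Slco4a1 was 0.401, 1.12 and 0.177 in rats 61, 71 and 88 and 2.21, 1.86 and 2.54 in rats 64, 67 and 69. Slco4c1 thus exceeded Slco4a1 in all 3 HD rats and in 1 of the 3 AL rats, and the groups did not overlap (exact permutation test, *P* = 0.1). The ratio of Slco4c1 to Slco2b1 was 2.54, 1.84 and 1.45 in the AL group and 19.1, 9.78 and 7.17 in the HD group. These pairs were chosen after their values were seen, so the separation of the ratios is a description.

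The 3 members of the Slco1a array overlapped between the diets, although each reached an unadjusted *P* value below 0.05 in a fit that left out 1 rat. These were the edgeR fits without rat 61 or without rat 69. Below the same value were 1722 of 11550 tested genes without rat 61 and 1744 of 11212 without rat 69, against 1224 of 11553 with all rats. Slco1a1, the apical S3 transporter, was at 776 CPM in rat 61, 652 in rat 71 and 740.1 in rat 88, and at 949, 938 and 505 CPM in rats 64, 67 and 69. Rats 64 and 67 were highest and rat 69 of the same group was lowest. The means were 723 ± 63.9 and 798 ± 253 CPM (SD over 3 rats each), with a fitted log2 fold change of 0.14 with a standard error of 0.24 (edgeR adjusted *P* = 0.890, exact permutation *P* = 1). Without rat 69 it was 0.39 at an unadjusted *P* value of 0.0240.

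Slco1a1 kept close to the summed level of the S3 markers, which ranged from 17421 to 20372 CPM in the AL group and from 14467 to 24693 CPM in the HD group. Per 1000 CPM of these markers Slco1a1 was at 40.1, 37.4 and 36.3 CPM in rats 61, 71 and 88 and at 40.9, 38.0 and 34.9 CPM in rats 64, 67 and 69, with a mean of 38.0 CPM in both groups. While the level of Slco1a1 varied 1.88-fold over the 6 rats, this ratio stayed between 34.9 and 40.9. The sum was carried by Cyp4a2 and Slc7a13, so the ratio describes these 2 genes rather than the list, and it was added after the data were examined. The median log2 deviation of the list ranged from -0.15 (rat 71) to 0.14 (rat 67), while that of Slco1a1 was lowest in rat 69 (-0.56). Acsm3, another S3 marker, was highest in rat 69, at 576 CPM. How many other genes follow this sum as closely was not tested.

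Slco1a6, the kidney transporter Oatp5, was at 1142, 1683 and 1909 CPM in rats 61, 71 and 88 and at 877, 1041 and 1514 CPM in rats 64, 67 and 69. Rats 71 and 88 were highest, rat 69 came next and rat 61 lay among the HD rats. The means were 1578 ± 394 and 1144 ± 331 CPM (SD over 3 rats each), with a fitted log2 fold change of -0.46 with a standard error of 0.26 (edgeR adjusted *P* = 0.588, exact permutation *P* = 0.2). Leaving out rat 61 gave -0.65 and leaving out rat 69 gave -0.71, both at an unadjusted *P* value below 0.05. Per 1000 CPM of S3 markers Slco1a6 ranged from 37.8 to 104.7 CPM, unlike its neighbor Slco1a1.

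The TPM ratio of Slco1a6 to Slco1a1, a measure within each library, was 1.62, 2.83 and 2.83 in rats 61, 71 and 88 and 1.01, 1.22 and 3.29 in rats 64, 67 and 69. Rats 71, 88 and 69 had the highest ratios, and rats 64 and 67 had nearly equal amounts of both transcripts. The diet groups overlapped (exact permutation test, *P* = 0.4).

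Slco1a4, a transporter of bile acids and digoxin better known from liver and the blood-brain barrier, was at 9.53, 24.4 and 23.9 CPM in rats 61, 71 and 88 and at 16.5, 13.9 and 19.4 CPM in rats 64, 67 and 69. The HD rats lay within the range of the AL rats. In edgeR the log2 fold change was -0.22 with a standard error of 0.34 (adjusted *P* = 0.881, exact permutation *P* = 0.9). Without rat 61 it was -0.54 at an unadjusted *P* value of 0.0210.

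By RSEM's own estimate, the sharing of reads among listed transcripts added little uncertainty for the Slco1a genes. Whether each read was placed in the right gene was not tested. The credibility intervals that RSEM deposited for each transcript were between 0.992 and 1.02 times as wide as a 95% interval from counting alone for the 3 Slco1a members, and between 0.962 and 1.01 times for the other 5. For Slco1a6 the interval was 1.80% to 3.85% of the level, and for Slco2b1, with 27 to 258 counts in a rat, it was 24.3% to 72.6%. These intervals cover counting and the sharing of reads among the listed transcripts, and not reads of sequences missing from the gene definitions.

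The window of 500000 bases on either side of the 3 Slco1a members held 17 listed genes, of which 13 were tested and 0 had an unadjusted *P* value below 0.05 in edgeR. DESeq2 also gave 0 genes of this window below an unadjusted *P* value of 0.05. Slc21a4 was at 619, 1086 and 1247 CPM in rats 61, 71 and 88 and at 734, 729 and 755 CPM in rats 64, 67 and 69, a log2 fold change of -0.41 with a standard error of 0.24 (edgeR adjusted *P* = 0.615). Without rat 61 it was -0.66 at an unadjusted *P* value of 0.00135, and without rat 88 it was -0.20. The HD rats were almost equal to each other and lay between rat 61 and the other AL rats. Slco1b3 was at 0 CPM in rat 61, 2.27 in rat 71 and 1.32 in rat 88 and at 0.0849, 0.300 and 0.639 CPM in rats 64, 67 and 69. Slco1c1, Slco1a5, LOC691138 (Spx in RefSeq) and the islet gene Iapp did not reach the count minimum. The other tested genes were Pde3a, Pyroxd1, Recql, Golt1b, Gys2, Ldhb, Kcnj8 and Abcc9. Their log2 fold changes ranged from -1.08 in Kcnj8 to 2.02 in Gys2, the glycogen synthase of liver, which had at most 3.52 CPM. Ldhb, the lactate dehydrogenase subunit of oxidative tissue, was the most abundant of them and had a log2 fold change of 0.19 with a standard error of 0.22.

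Slco2a1, the prostaglandin transporter, was at 19.9, 29.99 and 49.6 CPM in rats 61, 71 and 88 and at 30.98, 29.7 and 64.8 CPM in rats 64, 67 and 69. The groups overlapped, and rat 69 was highest and rat 61 lowest. A log2 fold change of 0.34 with a standard error of 0.40 was fitted (edgeR adjusted *P* = 0.834, exact permutation *P* = 0.6), and it was -0.13 without rat 69. Slco2a1 is known from vascular endothelium and the collecting duct. Per 1000 CPM of endothelial markers, a ratio added after the data were examined, it was at 79.3, 46.8 and 77.2 CPM in rats 61, 71 and 88 and at 190.3, 119.8 and 130.1 CPM in rats 64, 67 and 69. On this scale every HD rat was above every AL rat (exact permutation test, *P* = 0.1). Plvap, the highest endothelial marker in each AL rat, had a log2 fold change of -1.98 with a standard error of 0.64. How many other genes separate on this scale was not tested. Per 1000 CPM of principal cell markers of the collecting duct the groups overlapped, at 12.3 to 27.5 and 17.3 to 38.3 CPM.

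Slco3a1, a broadly expressed carrier of prostaglandins and thyroid hormone, was at 4.05, 9.76 and 9.93 CPM in rats 61, 71 and 88 and at 5.43, 4.55 and 11.4 CPM in rats 64, 67 and 69. Each group held both high and low rats. A log2 fold change of -0.14 with a standard error of 0.46 was fitted (edgeR adjusted *P* = 0.956, exact permutation *P* = 1), and its sign changed in 4 of the 6 fits without 1 rat.

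Slco1a4, Slco1a6 and Slco3a1 shared a feature that crossed the diets. In these 3 of 8 members rats 71, 88 and 69 were the highest of the 6, which held for 13.8% of all tested genes. Endothelial, stromal and leukocyte marker lists were also highest in rats 71, 88 and 69 (heat map of deviations from the mean). Their median deviations in these rats were 0.52 to 0.65, 0.67 to 0.91 and 0.047 to 1.22 on the log2 scale. The TMM factors of these rats were 1.097, 1.04 and 1.03, and those of rats 61, 64 and 67 were 0.953, 0.943 and 0.950. The part of these values in the order of the rats was not tested.

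**Figure D4:**
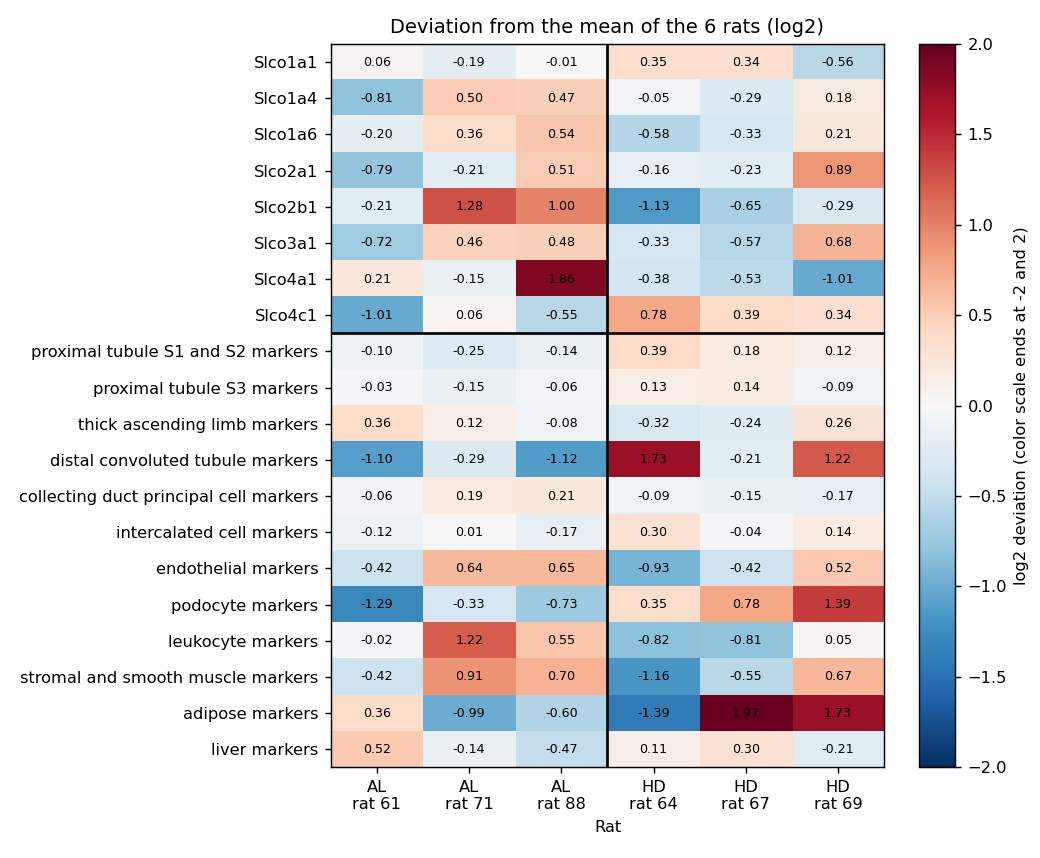
Deviation of log2(CPM + 0.5) from the mean of the 6 rats for each member (upper block), and the median deviation over the tested genes of each marker list with at least 3 tested genes (lower block), with AL rats on the left and HD rats on the right. Slco2b1 is lowest in rat 64 (-1.13) and highest in rat 71 (1.28), and the endothelial and stromal lists are positive in rats 71, 88 and 69 and negative in rats 61, 64 and 67.

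Genes that share substrates or tasks with the members were described by 5 lists, in which edgeR placed 0 genes past the adjusted threshold. Of all tested genes, 51.3% had a log2 fold change above 0, and the median was 0.0067. At an unadjusted *P* value below 0.05 in edgeR, 4.66% of them were higher and 5.94% lower. The lists were not tested as sets against these shares. Of 26 tested organic anion transport genes of 29 listed, 18 were higher and 8 lower in the HD group, and the median of their log2 fold changes was 0.26. Below an unadjusted *P* value of 0.05, 6 were higher and 2 lower. These 8 genes became 17 without rat 69 and 5 without rat 64, and the median was 0.40 without rat 69. DESeq2 placed 4 past its adjusted threshold, Slc22a8, Slc22a6, Slc13a3 and Abcc5, of which Slc22a6 was named after its values were seen. Slc13a3 is also one of the S1 and S2 markers given above. Slc22a8, the basolateral organic anion transporter OAT3, was at 14.7, 14.8 and 17.2 CPM in rats 61, 71 and 88 and at 247, 104.6 and 77.6 CPM in rats 64, 67 and 69. Its log2 fold change of 3.20 with a standard error of 0.43 was above that of any member (edgeR adjusted *P* = 0.254, DESeq2 adjusted *P* = 1.36e-13). Slc13a3, a sodium-dependent dicarboxylate transporter, had a log2 fold change of 0.82 with a standard error of 0.18, and Abcc5, an efflux pump, had -1.12 with a standard error of 0.23.

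Of 19 tested genes of thyroid hormone handling, 14 were higher and 5 lower, with a median log2 fold change of 0.29 and 3 genes, all higher, at an unadjusted *P* value below 0.05. Without rat 88 there was 1 such gene, and the median was 0.14 without rat 69 and 0.16 without rat 64. Slc7a8, an amino acid exchanger that also carries thyroid hormone, had a log2 fold change of 0.81 with a standard error of 0.26. Klf9, a thyroid hormone response gene, had 0.66 with a standard error of 0.26. DESeq2 placed 1 gene of this list past its adjusted threshold.

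Of 19 tested genes of prostaglandin handling, 5 were higher and 14 lower, and the median of their log2 fold changes was -0.20. Below an unadjusted *P* value of 0.05, 1 was higher and 3 lower, and these 4 genes became 1 without rat 64 or without rat 88, and 2 without rat 67. The median was -0.54 without rat 69 and -0.32 without rat 61. Pla2g4a, the phospholipase that frees arachidonic acid, was at 13.3, 27.7 and 27.9 CPM in rats 61, 71 and 88 and at 8.997, 6.35 and 12.7 CPM in rats 64, 67 and 69, a log2 fold change of -1.29 with a standard error of 0.35 (edgeR adjusted *P* = 0.398). By DESeq2 this gene alone of the list passed the threshold (adjusted *P* = 0.0335). Ptges, a prostaglandin E synthase, had a log2 fold change of 0.55 with a standard error of 0.20, and the receptor gene Ptgfr had -0.83 with a standard error of 0.34.

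Of 15 tested genes of steroid and bile acid conjugation, 6 were higher and 9 lower, with a median log2 fold change of -0.026 and 3 genes, all higher, at an unadjusted *P* value below 0.05. Ugt1a6, a glucuronosyltransferase, had a log2 fold change of 1.12 with a standard error of 0.25, Hsd11b2, which inactivates corticosterone, had 0.64 with a standard error of 0.16, and Ugt2b7 had 2.68 with a standard error of 1.09, with at most 0.953 CPM in the AL group and 0.224 to 7.72 CPM in the HD group. Hsd11b2 is also among the principal cell markers. DESeq2 placed 2 genes of this list, Ugt1a6 and Hsd11b2, past its adjusted threshold. The median was above 0 without rat 69 (0.14), rat 88 (0.075), rat 64 (0.010) or rat 61 (0.0013). Of 20 tested nuclear receptor and partner genes, 16 were higher and 4 lower, with a median log2 fold change of 0.26 and 5 genes, all higher, at an unadjusted *P* value below 0.05. The receptors Esr1, Nr1i2 (PXR, a sensor of foreign compounds) and Nr1h4 (FXR, the bile acid receptor) had log2 fold changes of 0.92, 0.42 and 0.58 with standard errors of 0.30, 0.14 and 0.20. DESeq2 placed 0 genes of this list past its threshold. The 5 genes became 0 without rat 88, 2 without rat 64 or without rat 71 and 3 without rat 67, and the median was 0.14 without rat 69.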

How the data were processed

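Kidney tissue of 6 rats was sequenced as poly(A)-selected TruSeq libraries, 1 library per rat, with single-end reads of 100 bases. The authors assigned the reads with RSEM 1.1.15 to University of California Santa Cruz gene definitions for rn5 and deposited, per transcript, an estimated count without normalization, its posterior mean, TPM values and an expression signal with credibility bounds. The library kit does not mark strand, so reads of overlapping genes on opposite strands cannot be told apart.

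Estimated counts were summed per gene symbol and rounded. Genes with at least 30 counts in at least 1 rat were tested with edgeR 4.0.16 (R 4.3.3, TMM normalization, quasi-likelihood, diet as the only factor), and *P* values were adjusted over all 11553 tested genes. Standard errors are the absolute log2 fold change divided by the square root of F. Exact permutation tests used log2(CPM + 0.5), or log2 of a ratio, and were two-sided. Total counts ranged from 12499945 to 30466461, which limits the precision of Slco2b1 most, and no libraries were identical (chi-square per degree of freedom of at least 22.6 between rats). The fits were tested on simulated data whose planted changes were larger than that of any member. That test therefore does not show how the fits perform for changes of the members' size. DESeq2 1.42.0, other scalings and filters and fits without single rats were alternatives. Each member had 1 transcript, so the choice of the most abundant transcript left their counts as they were.

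The members and gene lists were chosen with earlier results of these data known. Named genes are all Slco symbols, the genes near the Slco1a members, the 3 genes of each pathway list with the smallest *P* values, the 3 most alike genes of the 2 members with the smallest *P* values, and marker genes where their list is described. Upstream sequences are RefSeq's for GRCr8, which places Slco4a1 on the plus strand, while rn5 has it on the minus strand. The labels give no batch. Some genes named by this rule are not reported here.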

Additional observations from a re-analysis of the deposited data

How the results depend on the processing

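The members Slco2b1, Slco4a1, Slco4c1, Slco1a4 and Slco1a6 kept their direction under all 14 alternatives. DESeq2 gave 182 genes past the adjusted threshold and 1 member, Slco2b1 with a log2 fold change of -1.59. The fit with no filter on low counts gave 2 genes and 0 members. RLE normalization, library size alone, robust edgeR, a minimum of 10 counts in each rat and posterior mean counts gave 0 genes and 0 members. With 1 rat left out, the genes at an unadjusted *P* value below 0.05 ranged from 606 to 1744 against 1224 with all rats, those past the adjusted threshold from 0 to 4, and the members at an unadjusted *P* value below 0.05 from 3 to 5 (5 without rat 61). The low values of the first range were 606 without rat 88 and 639 without rat 64, and 1722 genes were counted without rat 61. Over the fits without 1 rat, Slco1a1 ranged from -0.0019 (without rat 64) to 0.39, Slco2a1 from -0.13 (without rat 69) to 0.76 and Slco3a1 from -0.67 to 0.10, above 0 without rats 64, 67, 71 or 88. The cause was not tested. Across the alternatives the adjusted *P* value ranged from 0.0392 to 0.916 for Slco2b1, from 0.0555 to 0.916 for Slco4a1 and from 0.0925 to 0.916 for Slco4c1. Of 234 medians of the lists under these alternatives, 208 moved by less than the spread between AL rats. Counts of 27 to 258 per rat limit Slco2b1. No paired analysis was possible because the rats of the groups share no numbers in the labels.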
